A study of Homo sapiens with 6 samples.

Results

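The 31 guides described here target 8 genes of poly(ADP-ribose) (PAR) metabolism and of the single-strand break repair that it serves. They were every guide in the library whose symbol was Parp followed by a number, or Parg, Adprhl2 or Xrcc1. Among 1826 targeting guides for 459 genes, they comprised 4 guides each for Parp1, Parp2, Parp3, Parp9, Parp10, Parg and Adprhl2, and 3 for Xrcc1. The library also held 61 non-targeting guides. Symbols are written as the count tables write them, in mouse style, although the cells are human. Adprhl2 is an older symbol of ADPRS, the gene of the hydrolase ARH3.

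The screen paired guide RNAs in a single construct, so that a cell could lose a pair of genes at once, and counted guide pairs by sequencing genomic DNA. All libraries came from eHAP iCas9-cl#6, a clone of the human eHAP line that is p53 null and carries doxycycline-inducible Cas9. Every group shares that genotype, so no value here describes cells with p53, or any other clone. The cells were transduced at a multiplicity of infection of 0.15, and Cas9 was induced for 7 days. The irradiated group (2 libraries) was exposed to 0.6 Gy of X-rays a day after each split and was collected on day 15, after 10 population doublings. The unirradiated group (2 libraries) was collected on day 14, after 12 population doublings, and the starting group (2 libraries) on day 0. Irradiated and unirradiated cells therefore also differed in doublings. Nothing in the labels says that replicates were separate cultures, so p-values measure only the spread between these libraries.

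As background, PARP1 and PARP2 bind broken DNA and build PAR chains on proteins around the break, while PARP3 adds single ADP-ribose units at breaks. PARG cuts the chains down, and ARH3 removes ADP-ribose from serines. XRCC1 has no catalytic activity. It is a scaffold that is drawn to PAR and brings ligase, polymerase and end-processing enzymes to single-strand breaks. PARP9, which acts with the ubiquitin ligase DTX3L, and PARP10, a transferase of single ADP-ribose units, are less central to break repair. Inhibitors of PARP1 and PARP2 kill cells that lack homologous recombination.

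In RefSeq (GRCh38.p14), PARP1 spans chr1:226360691-226408093, PARP2 chr14:20343635-20357904 and PARP3 chr3:51942363-51948867. PARP9 lies at chr3:122527924-122564784 and PARP10 at chr8:143977158-144012764. PARG spans chr10:49818279-49942027, ADPRS chr1:36088892-36093932 and XRCC1 chr19:43543311-43575527. Guide sequences were not used here, so the exon that each guide cuts is not given.

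Library totals ran from 61185707 to 86587125 reads. Of 863546 guide pairs with reads in any library, the libraries held different shares. Pairs without reads made up 7.6% and 49.4% in the irradiated libraries, 54.1% and 5.6% in the day 14 libraries and 4.7% and 1.9% in the day 0 libraries. Irradiated replicate 2 and day 14 replicate 1 are called the incomplete libraries below. A second imbalance concerned guides read at position 2 of the construct. In day 0 replicate 1, 262 of 927 such guides lay at least 0.5 below the median of the other libraries on the log2 scale, by a median of 0.72. They included 11 of 36 non-targeting guides, and 3 of the 14 tested position 2 guides described here, namely Parg guide 4 and Xrcc1 guides 3 and 4.

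Each guide was first summed over all of its partners, and between 468 and 939 constructs of a guide had reads in any library. Of the 31 guides, 28 had a mean of at least 2000 reads and were tested. The exceptions were Parg guide 3 and Parp10 guides 2 and 3, with a mean of 559.7, 426 and 161 reads. Parp10 guide 3 had 76 and 98 reads in the irradiated libraries, 159 and 346 at day 14, and 147 and 139 at day 0. These 3 guides were therefore rare in every library, day 0 included.

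No guide or gene of the set passed the test in any of the 3 comparisons. With edgeR's quasi-likelihood test at an adjusted p under 0.05, 0 of the 28 guides and 0 of the 8 genes were called. The same test called 0% of 1849 guides and 0% of 459 genes in each comparison, while DESeq2 called 0 of the set and 24, 27 and 22 of all guides for day 14 against day 0, irradiated day 15 against day 0 and irradiated day 15 against day 14. At an unadjusted p under 0.05, day 14 against day 0 had 1 of the 28 guides, against 4.27% of all guides. Irradiated day 15 against day 0 had 1, against 3.08% of all, and irradiated day 15 against day 14 had 2, against 4.49%. No gene of the set had an unadjusted p under 0.05, where the shares over all genes were 3.92%, 3.92% and 2.61% in the same order. The median 95% half-width for these genes was 0.12 on the log2 scale, and for the guides 0.16.

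Parp1, the main PAR-forming enzyme at breaks, had 5107 and 4898 CPM (reads scaled to library size) in the irradiated libraries, 5276 and 5304 CPM at day 14, and 5025 and 5101 CPM at day 0. Both day 14 values lay above all others, and the irradiated values spanned those of day 0. The log2 change was -0.081 for irradiated day 15 against day 14 (95% interval -0.18 to 0.018). It was 0.063 for day 14 against day 0 (-0.035 to 0.16) and -0.017 for irradiated day 15 against day 0 (-0.12 to 0.081). The smallest adjusted p among these was 0.54.

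Parp1 guide 1 had the smallest unadjusted p of the 28 guides in both comparisons with day 14. It stood at 1487 and 1506 CPM in the irradiated libraries, 1707 and 1645 CPM at day 14, and 1510.0 and 1544 CPM at day 0. The day 14 libraries were above the other 4, with no overlap. Its log2 difference was -0.16 for irradiated day 15 against day 14 (unadjusted p = 0.0148) and 0.13 for day 14 against day 0 (unadjusted p = 0.0308), and edgeR's adjusted p was 1.00 and 0.65. The lowest guide for day 14 against day 0 was Parp1 guide 3 at -0.043. Parp1 guide 3 was also the highest for irradiated day 15 against day 14, at 0.017. Against day 0, the 4 irradiated guide values lay between -0.029 and -0.0023.

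Parp2, the second break-activated PAR polymerase, stayed within a narrower range. Its summed level was 4049 and 4093 CPM in the irradiated libraries, 4189 and 3981 CPM at day 14, and 4042 and 4087 CPM at day 0. All 3 groups overlapped. The log2 changes were 0.0072 for day 14 against day 0, 0.0024 for irradiated day 15 against day 0 and -0.0049 for irradiated day 15 against day 14. The guides ran from -0.091 (guide 2) to 0.066 (guide 4) for day 14 against day 0. Between irradiated day 15 and day 14 they ran from -0.049 (guide 1) to 0.086 (guide 2).

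Parp3, which marks double-strand breaks with single ADP-ribose units, had 3949.5 and 3895 CPM in the irradiated libraries, 3776 and 4039 CPM at day 14, and 3677 and 3931 CPM at day 0. These ranges overlapped too. Parp3 guide 2 was at 1368 and 1328 CPM in the irradiated libraries and at 1475 and 1452 CPM at day 14. Its log2 difference was -0.12, with an unadjusted p of 0.0457 and an edgeR adjusted p of 1.00. Parp3 guide 3 differed by 0.11 in the same comparison, so guides of the same gene lay on both sides of 0.

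Parp9 averaged 4319 ± 4.57 CPM in the irradiated libraries, 4223 ± 9.26 CPM at day 14 and 4366 ± 11.3 CPM at day 0 (SD, n = 2 each). With TMM scaling the groups did not overlap. How many of all genes separate in this way was not counted. The log2 changes were small, at -0.048 for day 14 against day 0 (interval -0.14 to 0.044). For irradiated day 15 against day 0 the change was -0.016 (-0.11 to 0.076). Scaled by non-targeting constructs, day 14 lay above day 0, at 0.021 (-0.22 to 0.26). Irradiated day 15 then lay at -0.046 against day 14, so the order of the groups depended on the scaling. The separation is therefore shown for TMM only. Parp9 guide 4 had 1316 and 1191 CPM in the irradiated libraries, against 1437 and 1421 CPM at day 0. That is a log2 change of -0.19, with an unadjusted p of 0.0259 and an edgeR adjusted p of 0.79. The other 3 guides lay above 0 in that comparison, the highest being guide 1 at 0.067.

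Parp10 rested on its guides 1 and 4. The gene averaged 3178 ± 20.2 CPM in the irradiated libraries, 3206 ± 84.8 CPM at day 14 and 3025 ± 56.4 CPM at day 0 (SD, n = 2 each). All 4 later libraries lay above both day 0 libraries. The log2 change was 0.084 for day 14 against day 0 (95% interval -0.036 to 0.20) and 0.072 for irradiated day 15 against day 0 (-0.048 to 0.19). Both tested guides were on the same side, at 0.11 and 0.095 for day 14 and at 0.022 and 0.10 for irradiated day 15. Neither comparison passed the test.

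Parg, whose product degrades PAR chains, had 3842 and 4024 CPM in the irradiated libraries, 3934 and 3699.9 CPM at day 14, and 3135 and 3820 CPM at day 0. Day 0 replicate 1 was the lowest of the 6. The log2 change was 0.18 for irradiated day 15 against day 0 (95% interval -0.065 to 0.42) and 0.13 for day 14 against day 0 (-0.11 to 0.38). Parg guide 4 carried most of it, at 0.33 and 0.30. This guide had 1648 and 1705 CPM in the irradiated libraries, 1646 and 1638 CPM at day 14, and 1004 and 1658 CPM at day 0. The single low value was in day 0 replicate 1, where the guide belongs to the low position 2 guides. Parg guide 1, read at position 1, differed by 0.0093 for day 14 against day 0, and guide 2 by -0.019 for irradiated day 15 against day 0.

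Adprhl2 encodes the hydrolase that removes serine-linked ADP-ribose. It had 2234 and 2245 CPM in the irradiated libraries, 2265 and 2348 CPM at day 14, and 2285 and 2307 CPM at day 0. The irradiated values were the lowest, by a log2 difference of -0.042 against day 14 (95% interval -0.17 to 0.081) and -0.036 against day 0 (-0.16 to 0.088). Its guides spread widely, from -0.11 (guide 1) to 0.19 (guide 3) for day 14 against day 0.

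Xrcc1, the scaffold of single-strand break repair, had the largest estimates of the 8 genes against day 0. It had 2754 and 2935 CPM in the irradiated libraries, 2742 and 2877 CPM at day 14, and 2003 and 2739 CPM at day 0. Day 0 replicate 1 stood apart, and day 0 replicate 2 was close to the later libraries. The log2 change was 0.26 for irradiated day 15 against day 0 (95% interval -0.091 to 0.62, edgeR adjusted p = 0.62). It was 0.24 for day 14 against day 0 (-0.11 to 0.60, edgeR adjusted p = 0.54). Irradiated day 15 differed from day 14 by 0.018 (-0.34 to 0.37).

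The Xrcc1 estimates came from the position 2 guides. Xrcc1 guide 3 had 1205 and 1300.5 CPM in the irradiated libraries, 1247 and 1257 CPM at day 14, and 703 and 1207 CPM at day 0. Xrcc1 guide 4 had 481 and 595 CPM in the irradiated libraries, 500.1 and 526 CPM at day 14, and 299.7 and 499 CPM at day 0. Both were low in day 0 replicate 1 alone. Xrcc1 guide 1, read at position 1, had 1058 and 1052 CPM in the irradiated libraries, 1014 and 1095 CPM at day 14, and 995 and 1038 CPM at day 0. Its log2 change was 0.053 against day 0 in both later groups.

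The values of Parg and Xrcc1 turned on which day 0 library was used. Without day 0 replicate 2, so that only replicate 1 stood for day 0, edgeR called Xrcc1 and Parg in both day 0 comparisons. It then called 38.6% of all genes for day 14 and 35.1% for irradiated day 15 against day 0, and 0.218% for irradiated day 15 against day 14, where 0 of the set were called. Parg and Xrcc1 lay at 0.28 and 0.49 for day 14 in that fit, and at 0.33 and 0.51 for irradiated day 15. Without day 0 replicate 1, neither gene was called, with Parg at 0.00096 and 0.042 and Xrcc1 at 0.039 and 0.054 in the same order.

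Single knockouts, the constructs that join a gene's guide to a non-targeting guide, are fewer and noisier. Their reads are given as a ratio to those of constructs that carry a pair of non-targeting guides. No gene of the set passed the test, and 0% of 459 genes did. For day 14 against day 0, 3 of the 8 genes had an unadjusted p under 0.05, where the share over all genes was 3.92%. This depended on the scaling. With libraries scaled by TMM over genes instead, edgeR gave Parp10, Parp3 and Xrcc1 an unadjusted p of 0.064, 0.057 and 0.066. Irradiated day 15 had 0 of 8 against day 0 and 0 of 8 against day 14, with 2.61% and 2.83% over all genes.

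Parp10 single knockouts had ratios of 0.121 and 0.162 in the irradiated libraries, 0.198 and 0.114 at day 14, and 0.104 and 0.111 at day 0. The log2 change for day 14 against day 0 was 0.54 (95% interval 0.030 to 1.05, unadjusted p = 0.0391, edgeR adjusted p = 0.82). Day 14 replicate 1 was high, and day 14 replicate 2 lay just above day 0. Reads in day 14 replicate 1 came from 37 of 98 constructs. Parp3 had ratios of 0.177 and 0.168 in the irradiated libraries, 0.267 and 0.185 at day 14, and 0.159 and 0.178 at day 0. The log2 change for day 14 against day 0 was 0.42 (0.028 to 0.82, unadjusted p = 0.0373), and 1 construct held 17.7% of the gene's reads in day 14 replicate 1. Without day 14 replicate 2, Parp10 at 0.88 and Parp3 at 0.66 passed the test (edgeR adjusted p = 0.0493 each), as did 4.58% of all genes. Without day 14 replicate 1, Parp10 lay at 0.088 and Parp3 at 0.14, and neither passed. A lone day 14 library is assumed there to vary like the other groups.

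Xrcc1 single knockouts had ratios of 0.110 and 0.116 in the irradiated libraries, 0.144 and 0.120 at day 14, and 0.0853 and 0.106 at day 0. All later libraries were above day 0. The log2 change was 0.47 for day 14 against day 0 (95% interval 0.017 to 0.92, unadjusted p = 0.0427, edgeR adjusted p = 0.82) and 0.25 for irradiated day 15 against day 0 (-0.20 to 0.70). Without day 0 replicate 1, where Xrcc1 guides 3 and 4 were low, the change against day 0 was 0.32 for day 14 and 0.10 for irradiated day 15. The same single construct held 19.5% of the gene's reads in irradiated replicate 2 and 19.6% in day 14 replicate 1. Parp1 single knockouts had ratios of 0.225 and 0.167 in the irradiated libraries, 0.205 and 0.244 at day 14, and 0.210 and 0.215 at day 0. These overlapped, with a log2 difference of -0.20 for irradiated day 15 against day 14. Of the remaining genes, Parp2, Parg and Adprhl2 lay between 0.027 and 0.16 for day 14 against day 0, and Parp9 at -0.15.

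Other genes of the pathway were followed as 4 lists, again by sums over all partners, and 0 listed genes passed the test. The single-strand break repair list had all 12 members measured. Of these, 5 lay above 0 and 7 below 0 for irradiated day 15 against day 0, with a median of -0.022, against -0.0043 over all genes. The flap endonuclease gene Fen1 lay at -0.10 in that comparison, and Tdp1, which clears topoisomerase adducts, at 0.16. Against day 14, irradiated Aptx lay at 0.029 and Apex2 at 0.028. For day 14 against day 0, Fen1 lay at -0.099, Tdp1 at 0.16 and Tdp2, another enzyme gene for such adducts, at 0.17. Of the 12 genes, 4 have guides among the low position 2 guides of day 0 replicate 1, Tdp1 and Tdp2 included. Without day 0 replicate 1, Tdp1 lay at 0.051 for irradiated day 15 and at 0.048 for day 14 against day 0, and Tdp2 at 0.032 for day 14. With 1 library left out at a time, Fen1 stayed below 0 in both comparisons with day 0. It ran from -0.14 to -0.048 for day 14 and from -0.14 to -0.070 for irradiated day 15.

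Of 9 PAR readers and cofactors of ADP-ribosylation, 3 were measured. Chd1l, a PAR-activated chromatin remodeller, lay at 0.00016 for irradiated day 15 against day 0 and at -0.0054 for day 14 against day 0. Timeless, which binds PARP1, lay at -0.027 and 0.039. Nudt16 lay at -0.14 and -0.10, and at -0.065 and -0.028 without day 0 replicate 1. For irradiated day 15 against day 14 these genes lay at 0.0056, -0.066 and -0.034 in the same order.

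Knockouts that sensitise cells to PARP inhibitors formed a list of 15 genes, 13 of them measured. For irradiated day 15 against day 0, 6 lay above 0 and 7 below, and for day 14 against day 0 the counts were the same. Palb2, which links BRCA1 to BRCA2, lay at -0.13 for irradiated day 15 (unadjusted p = 0.0465, edgeR adjusted p = 0.62) and at -0.12 for day 14 against day 0. Brca1 and Bard1, partners in a ubiquitin ligase, lay at -0.14 and -0.10 for day 14 against day 0. The recombination genes Xrcc2 and Xrcc3 lay at 0.21 and 0.19 for irradiated day 15 against day 0, and both have low position 2 guides. Without day 0 replicate 1, Xrcc2 lay at 0.041 and Xrcc3 at 0.0059. Palb2 then lay at -0.072 for irradiated day 15 and at -0.061 for day 14 against day 0, Bard1 at -0.039 and Brca1 at -0.082 for day 14. Against day 14, irradiated Bard1, Rad54l and Brca1 lay at 0.10, 0.084 and 0.064.

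Loss of 53BP1 or shieldin is known to undo PARP inhibitor sensitivity in BRCA1-deficient cells. Of 7 such genes 6 were measured. Of these, 2 lay above 0 and 4 below for irradiated day 15 against day 0, with a median of -0.022. Trp53bp1 had the largest value, 0.14, and it too has low position 2 guides. It lay at -0.0086 without day 0 replicate 1. Mad2l2 and Shld2 lay at -0.058 and -0.036. Their values for day 14 against day 0 were 0.099, -0.048 and -0.030. Shld3 lay at 0.050 for irradiated day 15 against day 14, with Trp53bp1 at 0.040 and Mad2l2 at -0.010. Without day 0 replicate 2, the fit that called 38.6% and 35.1% of all genes also called Bard1, Brca1, Nudt16, Palb2, Tdp1, Tdp2 and Trp53bp1 for day 14 against day 0. For irradiated cells it called Nudt16, Palb2, Tdp1, Trp53bp1, Xrcc2 and Xrcc3 against day 0, with Xrcc2 at 0.40 and Palb2 at -0.19.

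Double knockouts were compared by the interaction, which is the log2 change of a gene pair minus the change that both genes' effects over all partners give. The 8 genes form 28 pairs, represented by 197 guide pairs. No pair passed the test in any comparison, and neither did any of 105111 gene pairs (0%). At an unadjusted p under 0.05 the set had 0, 0 and 1 of 28 pairs for day 14 against day 0, irradiated day 15 against day 0 and irradiated day 15 against day 14. The shares over all pairs were 0.421%, 0.354% and 0.832%. These are far below the nominal rate of 0.05, so the test was conservative here. Its lack of calls does not show that interactions are absent. Of the 3636 pairs with at least 1 of the 8 genes, 17, 13 and 26 had an unadjusted p under 0.05. The median 95% half-width inside the set was 1.72 on the log2 scale for day 14 against day 0, and 0.586 without the incomplete libraries.

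Parp1 with Parp2, the pair of PAR polymerases whose joint loss is lethal in mouse embryos, had the smallest p inside the set for day 14 against day 0. Over 8 constructs it had 530 and 733 reads in the irradiated libraries, 93 and 410 at day 14, and 955 and 796 at day 0. The residuals from the additive expectation were -0.41 and -0.12 in the irradiated libraries, -2.65 and -0.60 at day 14, and 0.090 and -0.15 at day 0, on the log2 scale. Both day 14 libraries lay below all others, and in day 14 replicate 1, an incomplete library, 6 of the 8 constructs had 0 reads. The interaction was -1.27 for day 14 against day 0 (95% interval -2.93 to 0.40, unadjusted p = 0.113, edgeR adjusted p = 0.97). It was -0.23 for irradiated day 15 against day 0 (-1.87 to 1.41) and 1.04 for irradiated day 15 against day 14 (-0.62 to 2.70). Without the incomplete libraries it was -0.58 for day 14 against day 0 (-1.09 to -0.061, edgeR adjusted p = 0.78).

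Parg with Parp1, the eraser with the writer of PAR, had 727 and 460 reads in the irradiated libraries, 363 and 726 at day 14, and 821 and 1039 at day 0. The interaction was -0.56 for irradiated day 15 and -0.40 for day 14 against day 0, and -0.16 for irradiated day 15 against day 14. Its residuals were 0.14 and -0.80 in the irradiated libraries, -0.67 and 0.32 at day 14, and 0.29 and 0.33 at day 0. Both irradiated libraries lay below day 0, and both incomplete libraries were the lowest. Without these it was -0.17 for irradiated day 15 and 0.014 for day 14 against day 0. Parp1 with Xrcc1 had 548 and 436 reads in the irradiated libraries, 370 and 516 at day 14, and 459 and 501 at day 0. Its interactions were 0.039 for irradiated day 15 and 0.14 for day 14 against day 0, and -0.10 for irradiated day 15 against day 14. Its residuals overlapped between all 3 groups, from -0.30 to 0.18.

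Adprhl2 with Parg joins the ADP-ribose hydrolases of this set. It had 451 and 128 reads in the irradiated libraries, 2 and 342 at day 14, and 283 and 372 at day 0. Both complete later libraries had residuals above day 0, at 0.66 for irradiated replicate 1 and 0.45 for day 14 replicate 2, and both incomplete ones had residuals below it, at -1.23 and -5.64. The interaction was 0.042 for irradiated day 15 and -0.51 for day 14 against day 0, and 0.55 for irradiated day 15 against day 14, and the interval of the first ran from -3.97 to 4.06. Without the incomplete libraries it was 0.70 for irradiated day 15 and 0.48 for day 14 against day 0, and neither passed the test.

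Adprhl2 with Parp3 was the pair with an unadjusted p under 0.05. It had 217 and 186 reads in the irradiated libraries, 889 and 258 at day 14, and 271 and 563 at day 0. The interaction was -2.15 for irradiated day 15 against day 14 (95% interval -4.29 to -0.0064, unadjusted p = 0.0495, edgeR adjusted p = 1.00) and 1.47 for day 14 against day 0. Day 14 replicate 1 alone was high, and without the incomplete libraries the values were -0.37 and -0.29. Parp3 with Parp9 lay at -1.12 for irradiated day 15 against day 14, and at 0.35 without the incomplete libraries.

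The remaining pairs of smallest p were Parg with Parp10 for day 14 against day 0, at 1.27 (-0.092 without the incomplete libraries), and a trio for irradiated day 15 against day 0. Parp1 with Parp9 lay at -0.69, Adprhl2 with Parp2 at 1.22 and Parg with Parp9 at -1.25. Parg with Parp9 had 398 and 116 reads in the irradiated libraries, against 642 and 724 at day 0. Adprhl2 with Parp2 had 262 and 876 reads in the irradiated libraries, against 349 and 296 at day 0. In each of the trio, the larger departure was in irradiated replicate 2, the incomplete library. Without the incomplete libraries they lay at -0.34, 0.092 and -0.57 in the same order.

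Without the incomplete libraries, 1 of the 28 pairs passed the test, where 1.19% of all pairs did for irradiated day 15 against day 0. This was Parp2 with Xrcc1, at -1.18 (95% interval -1.84 to -0.52, edgeR adjusted p = 0.0472). It had 220 and 1515 reads in the irradiated libraries, 1088 and 329 at day 14, and 519 and 542 at day 0. The residual was -0.81 in irradiated replicate 1 and 1.81 in irradiated replicate 2, so the libraries of this group went opposite ways. At day 14 the residual was 1.83 in replicate 1 and -0.050 in replicate 2, so both incomplete libraries had the high values. With all 6 libraries the interaction was 0.66 (-1.56 to 2.88). In that reduced fit each later group has 1 library, which is assumed to vary like the day 0 libraries. For day 14 against day 0 and irradiated day 15 against day 14 it called 0.159% and 0.198% of all pairs, and 0 of the 28.

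Parp1 was also paired with 34 measured genes of the 4 lists, and 0 of these pairs passed the test or had an unadjusted p under 0.05. For day 14 against day 0 the smallest p values belonged to Mad2l2 at -0.93, Shld2 at -0.47 and Rnaseh2a at 0.76. For irradiated day 15 against day 0 they belonged to Palb2 at 0.51, Trp53bp1 at 0.49 and Mad2l2 at -0.75. For irradiated day 15 against day 14, Shld2 lay at 0.57, Rif1 at -0.77 and Rad51b at 0.65. Most of these values moved with 1 library left out. Without irradiated replicate 2, Palb2 lay at 0.17, Trp53bp1 at 0.18 and Mad2l2 at -0.33 for irradiated day 15 against day 0, and Rif1 at -0.16 against day 14. Without irradiated replicate 1 these values were 0.79, 0.75, -1.34 and -1.84 in the same order. Without day 14 replicate 1, Mad2l2 lay at -0.43 and Rnaseh2a at -0.14 for day 14 against day 0, and Rad51b at 0.085 for irradiated day 15 against day 14. Without day 14 replicate 2 these values were -1.70, 1.31 and 1.60. Shld2 stayed between -0.52 and -0.42 and between 0.52 and 0.63 in its 2 comparisons. Parp1 with Palb2 had 1029 and 1748 reads in the irradiated libraries and 1122 and 1313 at day 0. Its residuals were 0.30 and 0.91 in the irradiated libraries and -0.071 and 0.30 at day 0, so the groups overlapped at 1 end.

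Constructs with 2 guides against the same gene numbered 29 over the 8 genes. They held 1086 and 1278 reads in the irradiated libraries, 743 and 1471 at day 14, and 1964 and 2039 at day 0, and 19 of 29 had no reads in day 14 replicate 1. Parp1 had 211 and 215 such reads in the irradiated libraries, 452 and 344 at day 14, and 618 and 503 at day 0. Xrcc1, with 2 such constructs, had 121 and 455 reads in the irradiated libraries, 26 and 205 at day 14, and 49 and 159 at day 0. Raw reads of the whole class were lower in each later library than at day 0, unscaled for depth. Library totals differed as well, at 71481191 and 86587125 reads in the irradiated libraries and 61962789 and 61185707 at day 14. They were 84399152 and 86542435 at day 0. Irradiated replicate 2, an incomplete library, had the largest total, yet fewer reads of this class than either day 0 library. The other later totals were below both day 0 totals, so raw reads alone do not give the size of any loss there. Reads of this class are too few for a test by gene.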

How the data were processed

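Per the file headers and values, the authors deposited raw counts, whole reads for each guide pair in each of 6 libraries. Per the submitters' processing notes, HISAT2 2.1.0 and hg38 were used, and the rules for assigning reads to guides are not given in the sources. A further 2 columns of the tables carry no sample name given here and were left out. Pairs absent from a library's table were set to 0. Groups and replicate numbers came from the sample titles.

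Counts were summed per guide (mean of at least 2000 reads), per gene (at least 2000), per single knockout (at least 20) and per gene pair. A construct with 2 guides against the same gene enters once per guide. Guide and gene sums were scaled by TMM, within position for guides, and single knockouts by constructs with 2 non-targeting guides. For gene pairs, an additive fit of medians on log2 CPM (prior count 2, 25 iterations) entered as an offset. Each level was fitted to all 6 libraries with edgeR 4.0.16 (quasi-likelihood, two-sided, Benjamini-Hochberg over all features, threshold 0.05) in R 4.3.3, with limma 3.58.1 and DESeq2 1.42.0 as alternatives. The fits were also run on simulated counts, with a smaller spread between libraries than found here and no incomplete libraries. That run does not show how the fits perform on these data. The biological coefficient of variation was 0.0984 for guides, 0.0598 for genes, 0.145 for single knockouts and 0.57 for pairs.

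The set of genes and the lists were chosen with earlier results of these data known. The text names all 8 genes, guides past the threshold or otherwise the highest and lowest per gene, and listed genes and pairs past the threshold or otherwise the 3 of smallest p per comparison, besides 4 fixed pairs. A listed gene that this rule names is not reported here. Parp2 with Xrcc1, Parp1 with Rad52, Eid3 with Parp1, and the reads of Parp1 with Palb2, Parg with Parp9 and Adprhl2 with Parp2, were added to the text after values were seen. RefSeq gave gene positions, 7 by current and 1 by older symbol.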

Additional observations from a re-analysis of the deposited data

How the results depend on the processing

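Counts of calls moved most with the libraries used. Leaving out 1 library at a time, edgeR called 0 to 313 guides for day 14 against day 0, 0 to 311 for irradiated day 15 against day 0 and 0 to 11 for irradiated day 15 against day 14. It called 0 to 177, 0 to 161 and 0 to 1 genes, of the set 0 to 3 guides and 0 to 2 genes in each day 0 comparison. The upper ends against day 0 came without day 0 replicate 2. Single knockouts for day 14 against day 0 had 0 to 21 calls, 0 to 2 of them in the set, and pair interactions 0 to 1 calls in both irradiated comparisons. Without both incomplete libraries, 167, 1248 and 208 pairs were called (1 inside the set, for irradiated day 15 against day 0), and 1 and 3 single knockouts against day 0.

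DESeq2 called 24, 27 and 22 guides and 2, 2 and 1 genes, none of them in the set. Scaling the low position 2 guides on their own, added after seeing the data, gave 3, 11 and 11 guides; it removes the deviation that defined those guides by construction. Non-targeting scaling gave 2 guides for irradiated day 15 against day 0 and 1 against day 14, where having no filter also gave 1. limma-trend gave 1 pair in both irradiated comparisons. With the replicate block, 1 guide and 1 pair were called in each irradiated comparison and 0 otherwise. The replicate numbers do not pair the samples. Replicate differences over guides correlated at -0.58 between day 14 and irradiated libraries. They correlated at -0.05 between day 14 and day 0, and at 0.11 between irradiated and day 0. By the negative value, guides high in day 14 replicate 1 tended to be high in irradiated replicate 2, the other incomplete library. The main tests used no pairing. Crossed pairing of irradiated and day 14 libraries, added after seeing the data, called 36 guides, 23 genes and 2 pairs, 0 in the set.

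Of 160 named log2 values, 71 changed sign under at least 1 alternative, in 89 of 960 fits without a library and 64 of 873 other fits. The causes were not tested.

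With 1 choice changed at a time, these log2 values changed sign, none of them past the threshold in either fit. Parp1 at 0.013, Parp2 at -0.0054 and Timeless at 0.011 turned sign without both incomplete libraries (gene sums, irradiated day 15 against day 0). Parp2 at -0.030 and Chd1l at 0.017 turned sign without both incomplete libraries (gene sums, day 14 against day 0). Parp2 at 0.025, Parp3 at -0.032, Parp10 at 0.021, Xrcc1 at -0.063, Chd1l at -0.0022 and Shld3 at -0.013 turned sign without both incomplete libraries (gene sums, irradiated day 15 against day 14). Parp1 at 0.083 turned sign without both incomplete libraries (single knockouts, irradiated day 15 against day 0). Parp2 at -0.012, Parp9 at -0.061 and Parp10 at 0.081 turned sign without both incomplete libraries (single knockouts, irradiated day 15 against day 14). Adprhl2 at -0.075 turned sign without both incomplete libraries (single knockouts, day 14 against day 0). Adprhl2 guide 1 at 0.016, Parg guide 1 at -0.073, Parp1 guide 3 at 0.040 and Parp3 guide 3 at 0.034 turned sign without both incomplete libraries (guide sums, day 14 against day 0). Adprhl2 guide 1 at -0.078, Parg guide 2 at 0.052, Parp1 guide 3 at -0.030, Parp2 guide 1 at 0.020, Parp3 guide 3 at -0.066 and Xrcc1 guide 4 at -0.12 turned sign without both incomplete libraries (guide sums, irradiated day 15 against day 14). Parp10 guide 1 at -0.016, Parp1 guide 2 at 0.0014 and Parp3 guide 4 at 0.15 turned sign without both incomplete libraries (guide sums, irradiated day 15 against day 0). Adprhl2 with Parg at 0.48, Adprhl2 with Parp3 at -0.29, Parg with Parp1 at 0.014, Parg with Parp10 at -0.092 and Parp1 with Rnaseh2a at -0.14 turned sign without both incomplete libraries (pair interactions, day 14 against day 0). Parp1 with Rif1 at 0.12 and Parp3 with Parp9 at 0.35 turned sign without both incomplete libraries (pair interactions, irradiated day 15 against day 14). Parp2 at -0.0062 and Chd1l at -0.0096 turned sign with non-targeting scaling (gene sums, irradiated day 15 against day 0). Parp3 at -0.070, Parp9 at -0.046, Parg at -0.037, Xrcc1 at -0.057, Apex2 at -0.047, Aptx at -0.052, Brca1 at -0.011, Chd1l at -0.071, Shld3 at -0.027 and Trp53bp1 at -0.036 turned sign with non-targeting scaling (gene sums, irradiated day 15 against day 14). Parp9 at 0.021, Chd1l at 0.062, Mad2l2 at 0.020 and Shld2 at 0.038 turned sign with non-targeting scaling (gene sums, day 14 against day 0). Parg guide 1 at -0.0048, Parp10 guide 4 at -0.069 and Parp1 guide 3 at -0.050 turned sign with non-targeting scaling (guide sums, irradiated day 15 against day 14). Parp1 guide 2 at 0.010 turned sign with non-targeting scaling (guide sums, irradiated day 15 against day 0). Adprhl2 at -0.031 turned sign by DESeq2 (single knockouts, day 14 against day 0). Adprhl2 at -0.027 turned sign with TMM scaling (single knockouts, day 14 against day 0). Parg guide 4 at -0.032 and Parp1 guide 3 at 0.010 turned sign with position 2 guides split (guide sums, day 14 against day 0). Parg guide 4 at -0.0060 and Parp2 guide 3 at 0.027 turned sign with position 2 guides split (guide sums, irradiated day 15 against day 0). Xrcc1 guide 1 at 0.00096 turned sign with the replicate block (guide sums, irradiated day 15 against day 14). Adprhl2 with Parg at -0.25 turned sign by limma-trend (pair interactions, irradiated day 15 against day 0).

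With 1 library left out at a time, these log2 values spanned 0. Parp1 ran from -0.048 to 0.013, Parp2 from -0.0059 to 0.010, Parp3 from -0.0038 to 0.093 and Chd1l from -0.022 to 0.022 (gene sums, irradiated day 15 against day 0). Timeless ran from -0.065 to 0.011, Trp53bp1 from -0.0086 to 0.30 (gene sums, irradiated day 15 against day 0). Parp2 ran from -0.026 to 0.050, Parp3 from -0.0066 to 0.091, Adprhl2 from -0.014 to 0.036 and Chd1l from -0.027 to 0.021 (gene sums, day 14 against day 0). Mad2l2 ran from -0.098 to 0.0058, Trp53bp1 from -0.046 to 0.26 (gene sums, day 14 against day 0). Parp2 ran from -0.045 to 0.031, Parp3 from -0.044 to 0.051, Parp10 from -0.042 to 0.013 and Parg from -0.0039 to 0.086 (gene sums, irradiated day 15 against day 14). Xrcc1 ran from -0.029 to 0.063, Apex2 from -0.031 to 0.083, Aptx from -0.030 to 0.085 and Chd1l from -0.018 to 0.025 (gene sums, irradiated day 15 against day 14). Nudt16 ran from -0.093 to 0.022, Shld3 from -0.021 to 0.12 and Trp53bp1 from -0.0081 to 0.085 (gene sums, irradiated day 15 against day 14). Parp1 ran from -0.051 to 0.20, Adprhl2 from -0.075 to 0.13 (single knockouts, day 14 against day 0). Parp1 ran from -0.35 to 0.083, Parp3 from -0.044 to 0.12 and Adprhl2 from -0.28 to 0.036 (single knockouts, irradiated day 15 against day 0). Parp1 ran from -0.43 to 0.0041, Parp2 from -0.035 to 0.068, Parp9 from -0.095 to 0.12 and Parp10 from -0.49 to 0.31 (single knockouts, irradiated day 15 against day 14). Adprhl2 ran from -0.30 to 0.0092 (single knockouts, irradiated day 15 against day 14). Adprhl2 guide 1 ran from -0.26 to 0.017, Parg guide 1 from -0.072 to 0.086, Parg guide 4 from -0.017 to 0.71 and Parp1 guide 3 from -0.13 to 0.040 (guide sums, day 14 against day 0). Parp3 guide 3 ran from -0.18 to 0.034, Xrcc1 guide 1 from -0.0035 to 0.11 (guide sums, day 14 against day 0). Adprhl2 guide 1 ran from -0.049 to 0.23, Parg guide 1 from -0.0054 to 0.15, Parg guide 2 from -0.14 to 0.044 and Parp10 guide 4 from -0.028 to 0.042 (guide sums, irradiated day 15 against day 14). Parp1 guide 3 ran from -0.064 to 0.10, Parp2 guide 1 from -0.12 to 0.022, Parp9 guide 4 from -0.14 to 0.0087 and Xrcc1 guide 1 from -0.055 to 0.056 (guide sums, irradiated day 15 against day 14). Xrcc1 guide 4 ran from -0.085 to 0.21 (guide sums, irradiated day 15 against day 14). Parp10 guide 1 ran from -0.016 to 0.056, Parp1 guide 2 from -0.026 to 0.022, Parp2 guide 3 from -0.081 to 0.017 and Parp3 guide 4 from -0.33 to 0.15 (guide sums, irradiated day 15 against day 0). Adprhl2 with Parg ran from -6.53 to 0.48, Adprhl2 with Parp3 from -0.29 to 2.24, Parg with Parp1 from -0.99 to 0.014 and Parg with Parp10 from -0.093 to 1.96 (pair interactions, day 14 against day 0). Parp1 with Rnaseh2a ran from -0.14 to 1.31, Parp1 with Xrcc1 from -0.011 to 0.31 (pair interactions, day 14 against day 0). Adprhl2 with Parg ran from -1.21 to 0.70, Parp1 with Xrcc1 from -0.21 to 0.25 (pair interactions, irradiated day 15 against day 0). Adprhl2 with Parg ran from -0.70 to 6.57, Parg with Parp1 from -0.71 to 0.42 and Parp1 with Xrcc1 from -0.35 to 0.11 (pair interactions, irradiated day 15 against day 14).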

Other observations

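From the fit without the incomplete libraries, where each later group had 1 library, 2 pairs with Parp1 are described. They were chosen after their values were seen, and other pairs with a gene of the set lay further from 0 in that fit. Parp1 with Rad52, which anneals single strands in repair, had 641 and 919 reads in the irradiated libraries, 542 and 1142 at day 14, and 638 and 781 at day 0. Its interaction in that fit was 1.17 for day 14 against day 0. The residuals were 0.081 and 1.07 at day 14, against -0.27 and 0.050 at day 0. Eid3 with Parp1 had 1914 and 670 reads in the irradiated libraries, 481 and 2423 at day 14, and 726 and 1666 at day 0. That fit gave 1.02 for irradiated day 15 against day 0 and 1.48 for day 14 against day 0. The residuals of Eid3 with Parp1 were 1.21 and -0.41 in the irradiated libraries, -0.60 and 1.67 at day 14 and -0.55 and 0.68 at day 0. Replicates of all 3 groups thus differed in sign. Neither pair was called with all 6 libraries.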
